A study of Homo sapiens with 12 samples.

Results

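The 36 genes described here encode human aminoacyl-tRNA synthetases, and they were taken by symbol from a table of 60617 genes. Of these, 20 encode the enzymes or enzyme subunits that charge tRNA in the cytosol, from AARS to YARS with FARSA and FARSB, and 16 encode mitochondrial enzymes, whose symbols end in ARS2. All 36 were found once in the table under the older symbols used here, and all 36 passed the filter on low values (at least 1 CPM in at least 3 libraries). RNA came from NALM-6 and REH, established human B-cell lymphoblastic leukemia lines, kept for 48 h in human cerebrospinal fluid (CSF) or in RPMI that held 10% fetal calf serum (media). The groups were NALM-6 in CSF, NALM-6 in media, REH in CSF and REH in media, each with 3 libraries, 12 in all. The labels name no genetic change or drug in any group, and they do not say whether the 3 libraries of a group came from separate cultures, so p-values measure only the spread between these libraries.

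Each synthetase joins 1 kind of amino acid to its matching tRNAs, so the set supplies all the charged tRNAs that ribosomes use. The enzymes fall into class I and class II by the fold of their catalytic domain. Several cytosolic enzymes (of the genes here DARS, EPRS, IARS, KARS, LARS, MARS, QARS and RARS, 8 in all) sit in the multi-synthetase complex, held together by the scaffold proteins AIMP1, AIMP2 and EEF1E1. EPRS charges both glutamate and proline, FARSA and FARSB are the subunits of the cytosolic phenylalanine enzyme, and GARS and KARS each make the cytosolic and the mitochondrial form from 1 gene. The mitochondrial enzymes are nuclear-encoded and imported, and they serve the translation of the respiratory chain subunits that mitochondrial DNA encodes. Mitochondrial glutaminyl-tRNA is made by an amidotransferase (QRSL1, GATB, GATC) in place of a synthetase. Many cytosolic synthetase genes are known targets of ATF4, the transcription factor of the amino acid and stress response, and WARS is also known as an interferon-inducible gene.

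Promoter sequences are shown for the members that hold the core of the C/EBP-ATF response element, through which ATF4 is known to act, because the responses to CSF of ATF4-linked genes and of synthetase genes are set side by side further on. RefSeq (GRCh38.p14) gave a promoter, from 250 bases before to 50 after the start, for 30 of the 36 genes. There was no entry for AARS2, DARS, LARS, VARS, VARS2 and YARS. Only 1 window per gene was searched, so a match at another start of the same gene would be missed. The motif searched was TGATGNAA, read on both strands, where N is any base. It was present in 6 of 16 cytosolic promoters (37.5%) and 1 of 14 mitochondrial promoters (7.14%), and in 3.67% of all 27305 promoters. Within the 250 bases before the start alone, it was present in 2 of 16 cytosolic promoters (12.5%), 1 of 14 mitochondrial promoters (7.14%) and 3.19% of all, so 4 of the 6 cytosolic matches span or follow the start. Each 30-base window reads 5′ to 3′ on the gene's strand, with the motif or its reverse complement in capitals.
AARS (chr16:70289675-70289704, minus strand): ttttctcgcagTTGCATCAgccaagttaga
CARS (chr11:3057407-3057436, minus strand): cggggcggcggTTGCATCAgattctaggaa
IARS (chr9:92293692-92293721, minus strand): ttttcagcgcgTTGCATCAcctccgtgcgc
MARS (chr12:57488053-57488082, plus strand): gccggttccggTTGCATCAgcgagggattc
NARS (chr18:57621804-57621833, minus strand): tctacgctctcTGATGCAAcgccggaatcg
TARS (chr5:33440956-33440985, plus strand): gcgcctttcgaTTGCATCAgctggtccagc
YARS2 (chr12:32756076-32756105, minus strand): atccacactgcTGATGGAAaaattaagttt

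The authors' values are reads scaled to a library total of 1000000 (CPM), and they rest on 23412869 to 37146556 assigned reads per library, and the lowest member value in any library was SARS2 at 25 reads in NALM-6 media 1. In each line 1 library stood apart, REH CSF 3 and NALM-6 media 1. The share of reads on ribosomal protein genes was 10.3% in REH CSF 3, against 5.72% and 6.25% in the other REH CSF libraries, and 21.9% in NALM-6 media 1, against 8.53% and 7.74% in the other NALM-6 media libraries. The mean exonic length of the genes reads came from, weighted by reads, was 5.34 kb and 4.62 kb in those libraries and 5.98 to 6.34 kb in the other 10. B-cell precursor markers summed to 2105 to 3758 CPM in every library, while T cell markers and choroid plexus, glia and neuron markers summed to at most 0.391 CPM. Of the B-cell precursor markers, VPREB1 was near 0 in REH, at 0.0503 CPM on average in CSF and 0.0345 CPM in media. Myeloid markers summed to 5.19 to 6.48 CPM in NALM-6 CSF, 1.20 to 2.59 CPM in NALM-6 media, 17.3 to 19.0 CPM in REH CSF and 4.80 to 5.34 CPM in REH media. Most of each sum was 1 gene, LYZ in NALM-6 (on average 5.47 CPM in CSF and 1.40 CPM in media) and CSF1R in REH (16.3 and 4.78 CPM). CD14 and FCN1 averaged at most 0.395 CPM in any group. The part of these markers in the results was not tested.

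The synthetase genes themselves were spread in the libraries that stood apart. In NALM-6 media 1, 26 of 36 members lay below the mean of the other NALM-6 media libraries, with ratios of 0.189 (MARS2) to 2.43 (FARS2). In REH CSF 3, 16 of 36 lay below the mean of the other REH CSF libraries, with ratios of 0.623 (MARS2) to 1.44 (FARS2). Of the 36, 26 lay on the same side in both, and the log ratios correlated over the 36 genes with Pearson's r of 0.85, a description across genes that share both libraries. FARS2, the mitochondrial phenylalanine enzyme, had 35.4 CPM in REH CSF 3, against 21.0 and 28.2 CPM in REH CSF 1 and 2, and 42.8 CPM in NALM-6 media 1, against 18.5 and 16.7 CPM in NALM-6 media 2 and 3. MARS2, the mitochondrial methionine enzyme, had 13.7 CPM in REH CSF 3, against 22.9 and 21.1 CPM, and 9.97 CPM in NALM-6 media 1, against 52.8 and 52.7 CPM. The results below are therefore given with and without both libraries, an alternative chosen after the data were seen.

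**Figure D1:**
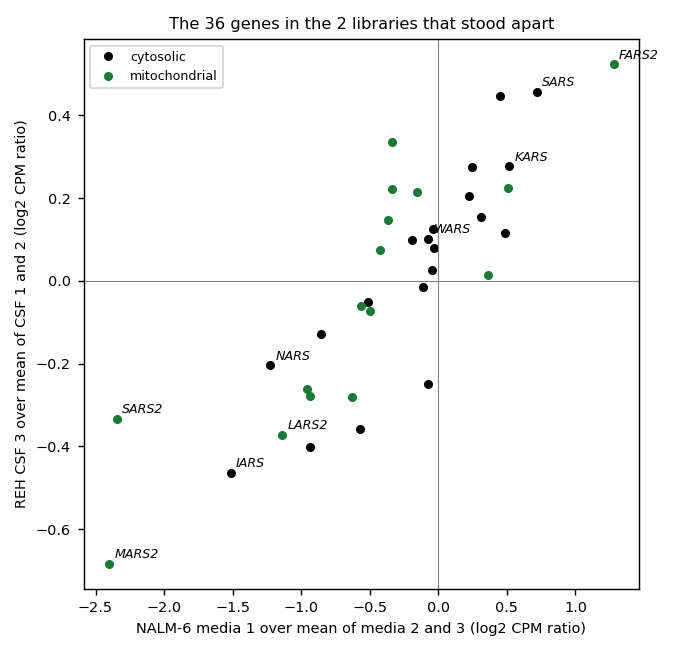
Each point is 1 of the 36 genes. The x axis gives the log2 ratio of CPM in NALM-6 media 1 to the mean of NALM-6 media 2 and 3, and the y axis the log2 ratio in REH CSF 3 to the mean of REH CSF 1 and 2, with cytosolic genes in black and mitochondrial genes in green. MARS2 lies lowest and FARS2 highest on both axes, and 26 of 36 genes share a sign.

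The cytosolic genes were expressed more highly than the mitochondrial ones in all 4 groups. The 20 cytosolic genes summed to 4433 ± 21.1 CPM in NALM-6 CSF, 4497 ± 304 CPM in NALM-6 media, 4091 ± 73.7 CPM in REH CSF and 4385 ± 53.8 CPM in REH media (SD, n = 3 each). The 16 mitochondrial genes summed to 733 ± 11.1, 766 ± 134, 706 ± 22.2 and 738 ± 5.03 CPM in the same order of groups. The ratio of the cytosolic to the mitochondrial sum was 6.05 ± 0.119 in NALM-6 CSF, 5.95 ± 0.719 in NALM-6 media, 5.80 ± 0.111 in REH CSF and 5.94 ± 0.111 in REH media. The libraries of CSF and media overlapped in this ratio in both lines, and 1 library, NALM-6 media 1, had 6.78, while NALM-6 media 2 and 3 had 5.53 and 5.54.

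Levels per kilobase of exons, with all annotated exons of a gene counted, allow a rough comparison of genes. The median level of the cytosolic genes was 44.3 ± 0.740 CPM per kb in NALM-6 CSF, 44.1 ± 4.17 in NALM-6 media, 37.0 ± 2.72 in REH CSF and 41.2 ± 0.683 in REH media. The median of the mitochondrial genes was 10.1 ± 0.356, 9.59 ± 1.10, 8.09 ± 0.410 and 9.25 ± 0.129 CPM per kb in the same order. KARS, GARS and AARS, the lysine, glycine and alanine enzymes, were among the 4 highest in every group. KARS had 65.3 ± 1.2 CPM per kb in NALM-6 CSF, 86.1 ± 19 in NALM-6 media, 72.4 ± 8.3 in REH CSF and 78.8 ± 2.8 in REH media. IARS2, the isoleucine enzyme, led the mitochondrial genes in every group, with 39.4 ± 1.4, 42.2 ± 14, 32.6 ± 3.3 and 39.0 ± 0.69 CPM per kb, levels that fell among the cytosolic genes. CARS, the cysteine enzyme, was the lowest cytosolic gene on this scale, with 8.88 ± 0.34, 8.82 ± 1.8, 8.02 ± 0.68 and 6.31 ± 0.18 CPM per kb in that order. Its annotated exons, 10037 bases, were the longest of the cytosolic genes, so this rank depends on the annotation. In plain CPM, CARS lay above RARS in NALM-6 CSF (89.2 against 85.2) and REH CSF (80.5 against 73.6). It lay below RARS in NALM-6 media (88.6 against 121) and REH media (63.3 against 83.2). SARS2, the mitochondrial serine enzyme, was the lowest of the 36 in every group, at 0.991 to 1.36 CPM per kb on average. Of its exonic bases in the annotation, 46.2% are shared with AC011455.2, a gene on the same strand listed at 0 CPM, and 10.8% with MRPS12 on the opposite strand, so its level is uncertain.

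**Figure D2:**
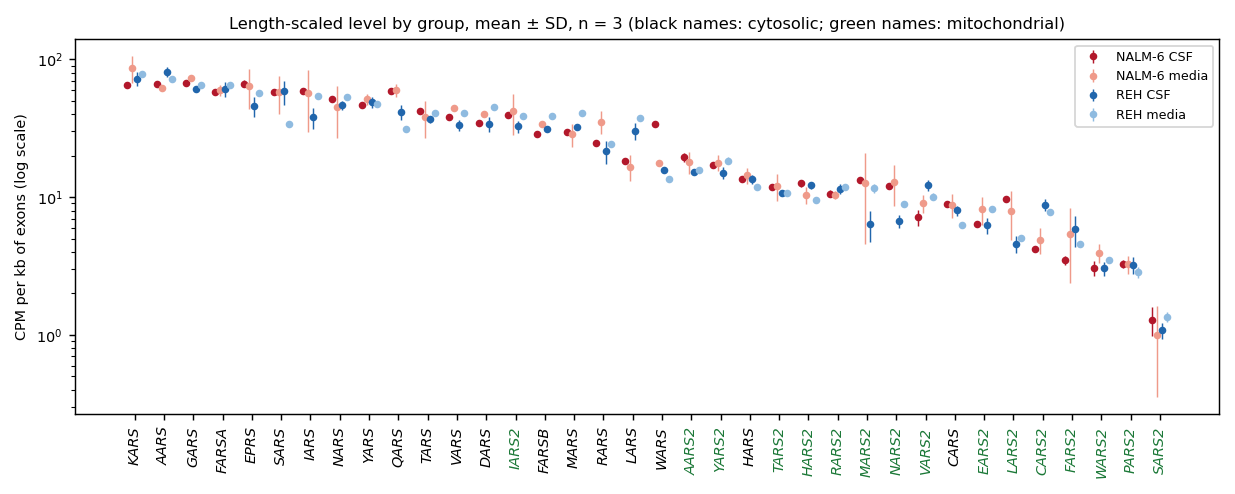
The y axis (log scale) gives CPM per kilobase of exons for each of the 36 genes, as the mean of 3 libraries with SD bars, for NALM-6 CSF, NALM-6 media, REH CSF and REH media. Black names are cytosolic and green names mitochondrial genes; IARS2 is the highest of the green names and CARS the lowest of the black ones.

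In NALM-6, WARS, which charges tryptophan tRNA, was the 1 synthetase gene that rose in CSF. It lies on GRCh38 at chr14:100333788-100376805. WARS had 214, 219 and 214 CPM in NALM-6 CSF and 109, 119 and 111 CPM in NALM-6 media. All CSF libraries lay above all media libraries, and the libraries of each group lay close together. The log2 difference, on the scale of log2(CPM + 1) used for every difference here, was 0.93 with a standard error of 0.10 and a 95% interval of 0.69 to 1.16 (limma adjusted p = 0.000276). Without both libraries that stood apart it was 0.90 (limma adjusted p = 2.2e-07), and WARS passed in 25 of 25 alternatives. WARS2, its mitochondrial counterpart, had 13.2, 11.7 and 10.2 CPM in NALM-6 CSF and 12.4, 16.4 and 16.9 CPM in NALM-6 media. These groups overlapped (log2 difference -0.35, 95% interval -0.69 to -0.01, limma adjusted p = 0.155). Of the exonic bases of WARS2, 4.68% are shared with the opposite-strand gene AL359915.2, which averaged 16.3 CPM, and the strand setting of the counting is not given in the sources used here.

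Over the whole set in NALM-6, 1 of 20 cytosolic genes rose and 0 fell, and 0 of 16 mitochondrial genes changed in either direction (limma, adjusted p under 0.05). Without NALM-6 media 1 the mitochondrial count was 4. With all libraries in, 12.1% of all 14364 genes tested were called in this comparison, 10.9% higher and 1.23% lower. The share of all genes without NALM-6 media 1 alone is not given here, so the count of 4 cannot be set against it. Without both libraries that stood apart, that share was 41.6%. At an unadjusted p under 0.05, 4 cytosolic and 2 mitochondrial genes passed, and among the mitochondrial genes edgeR called 2 and DESeq2 7, all lower. The shares of all genes at that threshold and in edgeR and DESeq2 are not given here, so these counts stand as descriptions. The median log2 difference was 0.00 over the cytosolic genes and -0.02 over the mitochondrial genes, against 0.25 over all genes tested. With median-of-ratios scaling, which moved the median of all genes to 0.03, these medians were -0.29 and -0.30. Of the 36 members, 3 had all CSF libraries above all media libraries and 8 had all below, while 46.6% of all genes did not overlap (35.8% higher and 10.9% lower). In bulk RNA, fewer cells of a type and less RNA per cell cannot be told apart.

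In REH, SARS, the cytosolic serine enzyme, rose in CSF and DARS, the cytosolic aspartate enzyme and a member of the complex, fell. SARS (chr1:109213918-109238169) had 189, 212 and 275 CPM in REH CSF and 138, 131 and 124 CPM in REH media. The groups did not overlap, and REH CSF 3, which stood apart, was the highest library. The log2 difference was 0.76 with a standard error of 0.21 (95% interval 0.30 to 1.21, limma adjusted p = 0.0306), and without both libraries that stood apart it was 0.61 (limma adjusted p = 2.4e-05). SARS missed the threshold under median-of-ratios scaling (limma adjusted p = 0.20) and in edgeR's quasi-likelihood test (0.72, adjusted p = 0.17) and DESeq2 (0.71, adjusted p = 0.15), and adjusted p-values ranged up to 0.20 over 25 alternatives. It also missed when any 1 of 8 libraries was left out, with adjusted p-values of 0.051 to 0.052 without NALM-6 CSF 1, 2 or 3, 0.073 to 0.110 without REH media 1, 2 or 3, 0.078 without REH CSF 2 and 0.112 without REH CSF 3 (limma). SARS2, its mitochondrial counterpart, had 3.56, 3.93 and 2.97 CPM in REH CSF and 4.68, 4.50 and 4.002 CPM in REH media (log2 difference -0.27, 95% interval -1.04 to 0.51, limma adjusted p = 0.73).

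DARS (chr2:135906677-135986100) had 153, 134 and 121 CPM in REH CSF and 181, 181 and 180 CPM in REH media. All CSF libraries lay below all media libraries, and REH CSF 3 was the lowest of them. DARS fell by 0.41 on the log2 scale, with a standard error of 0.12 (95% interval -0.67 to -0.16, limma adjusted p = 0.035), and the difference was -0.33 without both libraries that stood apart (limma adjusted p = 0.00064). DARS passed in 12 of 25 alternatives, and it missed with median-of-ratios scaling (limma adjusted p = 0.054) in edgeR (adjusted p = 0.054) and with REH fitted alone (limma adjusted p = 0.0504). It also missed when any 1 of 9 libraries was left out, with adjusted p-values of 0.0503 without NALM-6 media 2, 0.062 to 0.066 without NALM-6 CSF 1, 2 or 3, 0.110 to 0.117 without REH media 1, 2 or 3, 0.101 without REH CSF 2 and 0.095 without REH CSF 3 (limma). WARS had 100, 95.3 and 105 CPM in REH CSF and 87.9, 84.9 and 84.4 CPM in REH media. These libraries did not overlap either, but the difference of 0.22 missed the threshold (95% interval -0.01 to 0.45, limma adjusted p = 0.227).

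Over the whole set in REH, 1 of 20 cytosolic genes rose and 1 fell, and 0 of 16 mitochondrial genes changed (limma). Without NALM-6 media 1, which shares the fit's estimate of the spread, these counts were 11 cytosolic and 6 mitochondrial genes. With all libraries in, 14.9% of all genes tested were called, 13.2% higher and 1.71% lower. The share of all genes without NALM-6 media 1 alone is not given here, so the counts of 11 and 6 cannot be set against it. Without both libraries that stood apart, that share was 45.0%. At an unadjusted p under 0.05, 7 cytosolic and 2 mitochondrial genes passed, and among the mitochondrial genes edgeR called 1 and DESeq2 4, all lower. As in NALM-6, these counts have no share of all genes beside them and stand as descriptions. All CSF libraries lay above all media libraries for 8 of the 36 members and below for 18, while 43.1% of all genes did not overlap (28.8% higher and 14.3% lower). The median log2 difference was -0.13 over the cytosolic and -0.10 over the mitochondrial genes, against 0.07 over all genes.

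The 8 genes of the multi-synthetase complex had lower levels in REH CSF than in REH media in sum, which is given as a description. Their median log2 difference was -0.32, against -0.03 over the 12 cytosolic genes outside the complex, and the sum over the 8 genes was 1766, 1718 and 1622 CPM in REH CSF and 2045, 2021 and 2052 CPM in REH media. The sums did not overlap, and REH CSF 3 was again the lowest. The sum over the 12 genes outside the complex was 2243, 2434 and 2490 CPM in REH CSF and 2390, 2307 and 2338 CPM in REH media, which overlapped. Of the 8, DARS alone was called, and QARS, the glutamine enzyme, had higher values in CSF, at 174, 190 and 220 CPM in REH CSF and 151, 145 and 144 CPM in REH media (log2 difference 0.40, limma adjusted p = 0.0673). IARS, the isoleucine enzyme, had 320, 298 and 224 CPM in REH CSF and 396, 400 and 414 CPM in REH media (log2 difference -0.54, standard error 0.34, limma adjusted p = 0.40). In NALM-6 the complex sum was 1905, 1940 and 1912 CPM in CSF and 1719, 2192 and 2149 CPM in media, where the lowest media value was NALM-6 media 1. The scaffold genes AIMP1, AIMP2 and EEF1E1 were called in neither line (limma), at -0.06, -0.35 and 0.03 in REH and -0.16, -0.59 and -0.26 in NALM-6. At an unadjusted p under 0.05, AIMP2 passed in NALM-6 and 0 passed in REH, and edgeR called 0 in either line and DESeq2 2 in NALM-6. With both libraries that stood apart left out, AIMP1 and AIMP2 fell in both lines. They fell by 0.20 and 0.29 in NALM-6 (limma adjusted p = 0.018 and 0.0042) and by 0.17 and 0.52 in REH (limma adjusted p = 0.037 and 6.3e-05). AIMP2 shares 28.9% of its exonic bases with EIF2AK1 on the opposite strand, which averaged 255 CPM, so the level of AIMP2 is uncertain. AIMP1 shares 11.6% with TBCK, also on the opposite strand, which averaged 26.1 CPM.

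**Figure D3:**
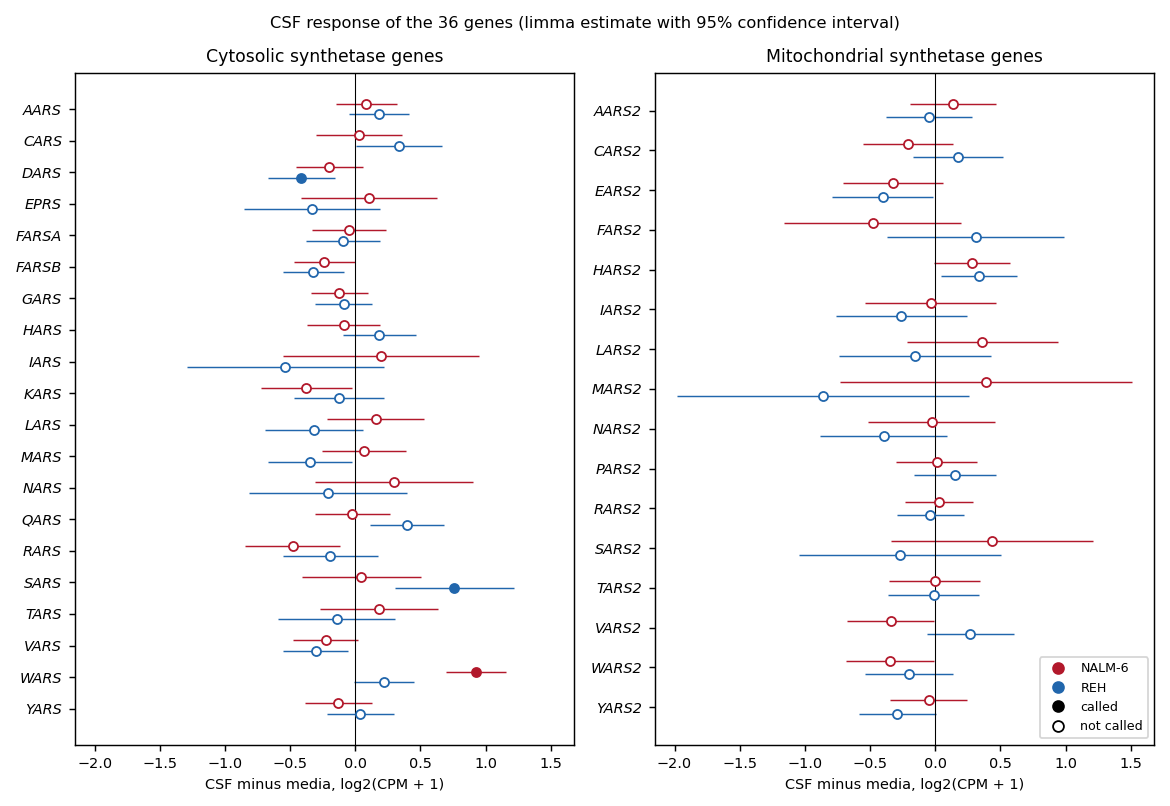
The x axis gives the difference of CSF minus media in log2(CPM + 1) for each gene, red for NALM-6 and blue for REH, with limma's 95% confidence interval, and filled points are called. WARS in NALM-6 and SARS and DARS in REH are the filled points, and the widest intervals are those of MARS2.

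Leaving out both libraries that stood apart raised the number of calls. Among all genes, 41.6% were then called in NALM-6 (30.4% higher, 11.2% lower) and 45.0% in REH (31.1% higher, 14.0% lower), of 14032 tested. In NALM-6, 3 cytosolic genes rose and 8 fell, and 0 mitochondrial genes rose and 5 fell. In REH, 5 cytosolic genes rose and 10 fell, and 1 mitochondrial gene rose and 5 fell. The median over the cytosolic genes was -0.11 in NALM-6 and -0.14 in REH, and over the mitochondrial genes -0.12 and -0.07, while the medians over all genes were 0.09 and 0.08.

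In this fit, CARS, SARS and WARS rose in both lines. Without the same libraries, CARS in NALM-6 missed the threshold in edgeR (0.11, adjusted p = 0.23) and with median-of-ratios scaling (0.09, limma adjusted p = 0.32), as did WARS in REH (0.09, adjusted p = 0.28, and 0.11, limma adjusted p = 0.14). CARS differed by 0.19 in NALM-6 and 0.30 in REH (limma adjusted p = 0.047 and 0.004), and SARS by 0.29 and 0.61 (limma adjusted p = 0.0055 and 2.4e-05). The 11 genes that fell in both lines were DARS, EPRS, IARS, KARS and RARS of the complex, VARS and FARSB outside it, and EARS2, IARS2, MARS2 and NARS2 of the mitochondrial set. Of the complex, 5 of 8 genes fell in NALM-6, and 7 of 8 fell in REH, where QARS rose by 0.30 (limma adjusted p = 0.0014). These fits hold 2 media libraries in NALM-6 and 2 CSF libraries in REH.

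Of the mitochondrial genes, EARS2 and MARS2 had the values that follow in the same fit. EARS2, the glutamate enzyme, shares 6.46% of its exonic bases with UBFD1 on the opposite strand. It differed by -0.53 in NALM-6 and -0.31 in REH, and had 36.7, 36.7 and 36.5 CPM in NALM-6 CSF and 53.7 and 52.9 CPM in NALM-6 media 2 and 3. MARS2 differed by -0.37 in NALM-6 and -0.65 in REH, and had 22.9 and 21.1 CPM in REH CSF 1 and 2 and 31.8, 37.3 and 35.9 CPM in REH media. NALM-6 media 1 was below the NALM-6 CSF libraries for both genes, so with that library in, their groups overlapped in NALM-6. HARS2, the mitochondrial histidine enzyme, rose in REH by 0.29 (limma adjusted p = 0.0042), but 11.7% of its exonic bases are shared with HARS on the opposite strand.

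The response of WARS differed between the lines. The difference of the CSF responses, REH minus NALM-6, was -0.71 with a standard error of 0.15 (95% interval -1.03 to -0.38, limma adjusted p = 0.0211), and -0.71 without both libraries that stood apart (limma adjusted p = 9.8e-05). It passed in 11 of 24 alternatives and missed with median-of-ratios scaling (-0.49, limma adjusted p = 0.26), in edgeR (-0.48, adjusted p = 0.27) and with the replicate number as a block (-0.71, limma adjusted p = 0.20). It also missed when any 1 of 8 libraries was left out, with adjusted p-values of 0.052 without NALM-6 media 3, 0.075 to 0.081 without NALM-6 CSF 1, 2 or 3, 0.064 to 0.076 without REH media 1, 2 or 3 and 0.073 without REH CSF 2 (limma). WARS was the 1 cytosolic gene called for this difference and 0 of 16 mitochondrial genes were called, where 4.23% of all genes were, 3.03% higher and 1.20% lower. At an unadjusted p under 0.05, 3 cytosolic and 1 mitochondrial gene passed, and edgeR and DESeq2 called 0 of the 36. The 4.23% is for limma at the adjusted threshold, and no share of all genes is given for these other counts. SARS differed by 0.71 between the responses in the other direction (95% interval 0.07 to 1.36, limma adjusted p = 0.259), and by 0.32 without both libraries that stood apart (limma adjusted p = 0.047). In that fit, 13.9% of all genes were called (6.65% higher, 7.26% lower), and of the 36, SARS was called higher and WARS lower.

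The lines also differed in media. In media, REH against NALM-6, 2 cytosolic genes were higher and 5 lower, and 1 mitochondrial gene was higher and 0 lower, where 39.9% of all genes were called (26.4% higher, 13.5% lower). Without NALM-6 media 1 there were 7 mitochondrial calls, and without REH media 3 there were 4 cytosolic calls. The shares of all genes in those fits are not given here. At an unadjusted p under 0.05, 7 cytosolic genes and 1 mitochondrial gene passed, and among the mitochondrial genes edgeR called 6 and DESeq2 9, all lower. The 39.9% is for limma at the adjusted threshold, and no share of all genes is given for these other counts. Without both libraries that stood apart, 5 cytosolic genes were higher and 10 lower and 3 mitochondrial genes were higher and 10 lower, where 67.4% of all genes were called (39.5% higher, 28.0% lower).

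The cytosolic leucine and methionine enzyme genes were higher in REH. LARS (chr5:146113038-146182660), the cytosolic leucine enzyme and a leucine sensor, had 302, 305 and 305 CPM in REH media and 102, 152 and 150 CPM in NALM-6 media. The lowest REH library was far above the highest NALM-6 library (log2 difference 1.19, standard error 0.17, limma adjusted p = 0.000183). LARS2, its mitochondrial counterpart, had 34.8, 34.7 and 34.7 CPM in REH media and 30.2, 68.5 and 64.3 CPM in NALM-6 media. The LARS2 groups overlapped through NALM-6 media 1 (log2 difference -0.54, limma adjusted p = 0.122), and without both libraries that stood apart the difference was -0.92 (limma adjusted p = 2.8e-08). MARS (chr12:57475445-57517569) had 292, 286 and 285 CPM in REH media and 156, 227 and 219 CPM in NALM-6 media, which did not overlap (log2 difference 0.53, standard error 0.15, limma adjusted p = 0.0133). With median-of-ratios scaling the difference of MARS was 0.26 and missed the threshold (limma adjusted p = 0.0503). MARS shares 5.05% of its exonic bases with DDIT3 and 7.38% with ARHGAP9, both on the opposite strand. MARS2 had 31.8, 37.3 and 35.9 CPM in REH media and 9.97, 52.8 and 52.7 CPM in NALM-6 media (log2 difference 0.18, limma adjusted p = 0.784).

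The glutamine, serine and arginine enzyme genes were lower in REH. QARS (chr3:49095932-49105135) had 151, 145 and 144 CPM in REH media and 314, 277 and 252 CPM in NALM-6 media, with a wide gap between the lines (log2 difference -0.93, standard error 0.13, limma adjusted p = 0.000157). SARS had 138, 131 and 124 CPM in REH media and 302, 192 and 176 CPM in NALM-6 media (log2 difference -0.72, standard error 0.21, limma adjusted p = 0.0167). RARS (chr5:168486445-168519299) had 85.9, 82.4 and 81.2 CPM in REH media and 147, 110 and 105 CPM in NALM-6 media (log2 difference -0.51, standard error 0.17, limma adjusted p = 0.0298). NALM-6 media 1 was the highest library for each of these genes, and the libraries of the lines did not overlap for any of them, as for 59.2% of all genes (39.5% higher in REH and 19.6% lower). RARS2, the mitochondrial arginine enzyme, had 31.2, 29.6 and 29.5 CPM in REH media and 24.5, 27.5 and 27.1 CPM in NALM-6 media (log2 difference 0.19, limma adjusted p = 0.223). Without REH media 3, SARS missed the threshold (limma adjusted p = 0.059), and without REH media 1, 2 or 3, RARS missed it (0.066 to 0.088). CARS and WARS were also lower in REH, at -0.46 and -0.40 (limma adjusted p = 0.0308 and 0.0111). CARS missed the threshold without REH media 1, 2 or 3, and its highest adjusted p over 24 alternatives was 0.0951 (limma).

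CARS2, the mitochondrial cysteine enzyme, was the 1 mitochondrial gene called between the lines. CARS2 (chr13:110641412-110713603) had 81.3, 80.4 and 83.3 CPM in REH media and 63.9, 43.8 and 46.2 CPM in NALM-6 media (log2 difference 0.68, standard error 0.16, limma adjusted p = 0.00488). The groups did not overlap, and without both libraries that stood apart the difference was 0.85 (limma adjusted p = 2.3e-07). CARS2 missed the threshold under median-of-ratios scaling (0.41, limma adjusted p = 0.22) and in edgeR (0.37, adjusted p = 0.25). It also missed after quantile normalization and in DESeq2, so with all libraries in, its call depended on the scaling. Its lowest log2 difference over 24 alternatives was 0.32. CARS, the cytosolic counterpart of CARS2, had 65.1, 61.5 and 63.5 CPM in REH media and 109, 79.6 and 76.8 CPM in NALM-6 media, so in CPM this pair differed between the lines in opposite directions. Of the 8 genes called in this comparison, LARS and QARS passed in 24 of 24 alternatives, while CARS2, CARS and RARS passed in 20, MARS in 22 and SARS and WARS in 23.

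**Figure D4:**
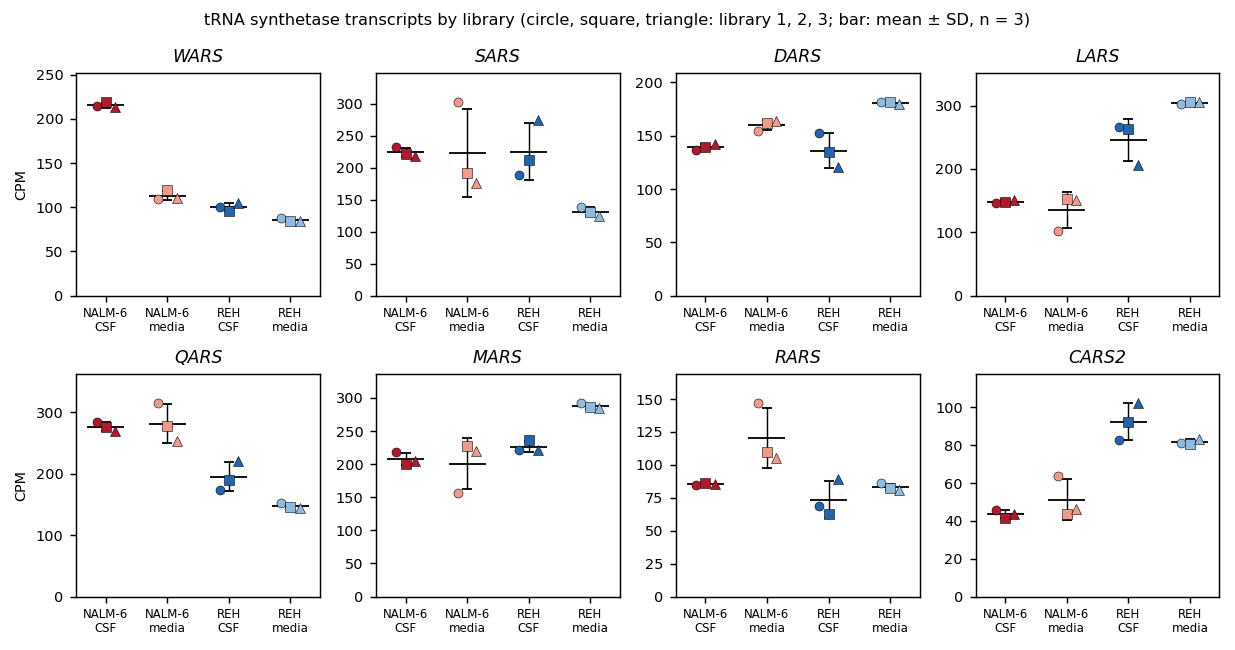
Each panel shows 1 gene, with CPM on a y axis that starts at 0 and the groups NALM-6 CSF, NALM-6 media, REH CSF and REH media along the x axis. Points are libraries 1 (circle), 2 (square) and 3 (triangle), and bars give the mean ± SD of 3 libraries. WARS is at 214 to 219 CPM in NALM-6 CSF and at most 119 CPM elsewhere, and LARS and QARS separate the lines.

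The scaling changed how unevenly the calls over all genes split by direction. Higher calls outnumbered lower ones in both CSF comparisons under each scaling, while between the lines quantile normalization gave more lower calls. In NALM-6, limma called 1565 genes higher and 177 lower with total-read scaling, 1073 and 341 with median-of-ratios scaling and 712 and 406 with quantile normalization. In REH these counts were 1899 and 245, 1462 and 538, and 1233 and 839. Between the lines in media they were 3791 and 1935, 3221 and 2551, and 2903 and 3150. Median-of-ratios scaling moved the median of all genes by over 0.1 in NALM-6 (0.25 to 0.03) and between the lines (0.26 to 0.03). Relative to the median of all genes, the median of the cytosolic genes lay lower in both lines with total-read, median-of-ratios and quantile scaling, in edgeR and in DESeq2, as did that of the mitochondrial genes.

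Several other genes of the amino acid and stress response had larger differences between CSF and media. Of 17 tested genes in a list of ATF4 and its targets other than synthetases, 8 rose and 0 fell in NALM-6 (median 0.68), and 9 rose and 0 fell in REH (median 0.83), where 10.9% and 13.2% of all genes were called higher. Without both libraries that stood apart, 11 rose and 1 fell in NALM-6, and 13 rose and 1 fell in REH, where 30.4% and 31.1% of all genes were called higher. ATF3, a stress-induced transcription factor, had 201, 201 and 194 CPM in NALM-6 CSF against 5.95, 8.93 and 7.30 CPM in NALM-6 media, and 216, 219 and 222 CPM in REH CSF against 9.18, 8.87 and 8.83 CPM in REH media. Its log2 differences were 4.59 and 4.47 (limma adjusted p = 4.1e-08 in NALM-6 and 1.7e-08 in REH). SESN2, a leucine sensor that restrains mTORC1, differed by 2.03 and 2.75, TRIB3, a pseudokinase induced by ATF4, by 1.91 and 2.19, and DDIT4, another mTORC1 inhibitor, by 1.43 and 2.71, all called in both lines. In the same list, PSAT1, PHGDH, SLC7A5 and VLDLR missed even an unadjusted p under 0.05 in both lines (limma, all libraries in). ASNS had low values, at 0.391 to 1.98 CPM on average over the groups. Of its exonic bases in the annotation, 44.6% are shared with AC079781.5, a gene on the same strand that averaged 1.91 CPM, so its level is uncertain. ATF4 itself, named after its values were seen, was not called in either line with all libraries in (-0.74 in NALM-6 and -0.18 in REH, limma adjusted p = 0.074 and 0.74). When those libraries were left out, ATF4 was the gene that fell in each line, by 0.44 in NALM-6 (limma adjusted p = 0.00042) and by 0.35 in REH (limma adjusted p = 0.0015).

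Among 11 tested genes of amino acid sensing, PPP1R15A, which restores translation by dephosphorylating eIF2α, and SESN1, a sestrin, rose in both lines, and 0 fell with all libraries in. PPP1R15A differed by 2.56 in NALM-6 and 2.36 in REH, and SESN1 by 2.17 and 2.39. With both libraries that stood apart left out, 5 rose and 0 fell in NALM-6, where the median was 0.15 against 0.98 with all libraries, and 3 rose and 1 fell in REH. That gene was EIF2AK3, a kinase of eIF2α, which fell by 0.52 in REH (limma adjusted p = 0.00011) and rose by 0.88 in NALM-6 (limma adjusted p = 2.6e-06).

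The genes that hand charged tRNA on to translation were mostly not called with all libraries in. Of 10 mitochondrial translation genes, MTIF3, the mitochondrial initiation factor, fell by 1.0 in NALM-6 (limma adjusted p = 0.0353), with 57.5 CPM in NALM-6 media 1 against 29.8 and 28.1 CPM in NALM-6 media 2 and 3, and in REH the count was 0 in limma (also at an unadjusted p under 0.05), 0 in edgeR and 1 in DESeq2. Of the 3 genes of the glutaminyl-tRNA amidotransferase, QRSL1 fell by 0.46 in REH (limma adjusted p = 0.0408), with 82.6, 78.8 and 83.5 CPM in REH CSF and 113, 111 and 114 CPM in REH media. Of 4 tested elongation factor genes and 5 tested synthetase-like and editing genes, 0 passed in limma in either line, while at an unadjusted p under 0.05 the counts were 0 and 2 in NALM-6 and 0 in REH. For the elongation genes edgeR called 0 and DESeq2 2 in NALM-6 and both 0 in REH, and for the synthetase-like genes these counts were the same. When the libraries that stood apart were left out, limma called 2 of 10 mitochondrial translation genes lower in NALM-6 and 4 in REH, MTIF3 in both, and 2 of 4 elongation factor genes lower in NALM-6 and 1 in REH, EEF1A1 in both. Of the amidotransferase genes, GATC then fell in both lines, and QRSL1 rose in NALM-6 (0.20, limma adjusted p = 0.0079) and fell in REH (-0.48, limma adjusted p = 1.3e-05). GATC shares 39.1% of its exonic bases with SRSF9 on the opposite strand, which averaged 207 CPM, so the level of GATC is uncertain. MTIF3 shares 11.3% with GTF3A, also on the opposite strand, which averaged 208 CPM. Of the synthetase-like and editing genes, 1 rose and 0 fell in NALM-6, and 1 rose and 1 fell in REH. With edgeR or median-of-ratios scaling and the same libraries left out, QRSL1 was not called in NALM-6.

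**Figure D5:**
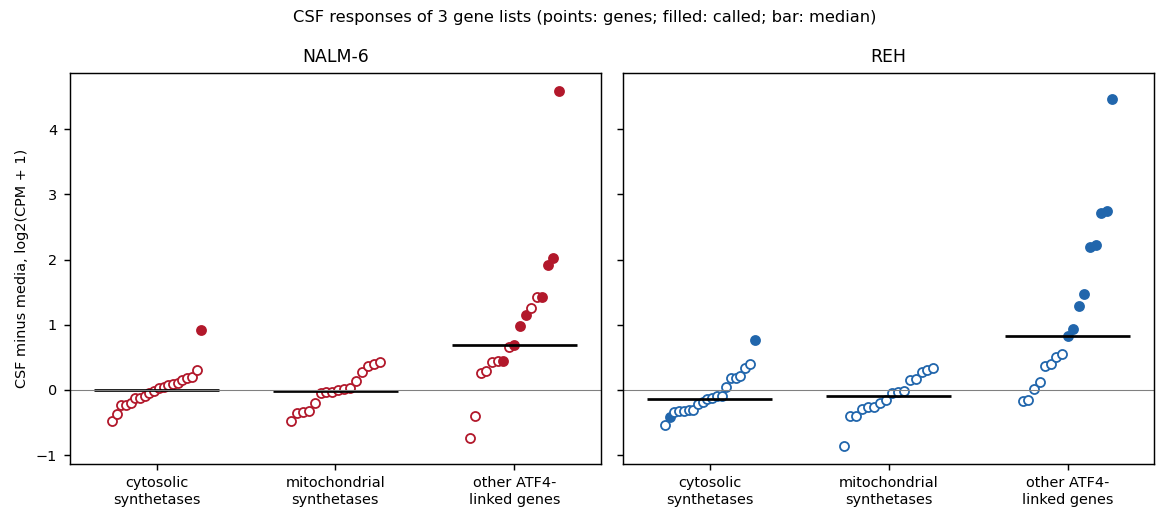
The y axis gives the difference of CSF minus media in log2(CPM + 1), and each point is a gene of 1 of 3 lists, for NALM-6 (left panel) and REH (right panel), with bars at the medians and filled points for called genes. The list of other ATF4-linked genes has medians of 0.68 and 0.83 and reaches 4.59 and 4.47 (ATF3), while the synthetase lists stay between -0.86 and 0.93.

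The promoter windows shown above can be read beside these values. The 6 cytosolic sites share the octamer TTGCATCA or its reverse complement TGATGCAA, and the YARS2 site differs from them. The promoters of WARS and SARS, the genes that rose in NALM-6 and in REH, hold no such letters in this window. Of the genes that hold them, CARS differed by 0.03 in NALM-6 and 0.34 in REH, and IARS by 0.20 and -0.54, and none of the 7 was called between CSF and media in either line with all libraries in (limma). Without both libraries that stood apart, limma called CARS higher in both lines and AARS in REH, while IARS fell in both lines and MARS, NARS and YARS2 fell in REH. With edgeR or median-of-ratios scaling and the same libraries left out, CARS in NALM-6 and AARS in REH were not called (AARS at 0.07, adjusted p = 0.37, and 0.09, limma adjusted p = 0.26). In the ATF4-linked list, 4 of 16 matched promoters hold the motif, those of ASNS, ATF3, CHAC1 and SLC3A2. The E-box CACGTG, the same on both strands, was present in 1 of 16 cytosolic promoters (6.25%, IARS), 3 of 14 mitochondrial promoters (21.4%, CARS2, EARS2 and MARS2) and 7.43% of all promoters.
EARS2 (chr16:23557347-23557376, minus strand): agggagaagccCACGTGtgctattccatcc
MARS2 (chr2:197705347-197705376, plus strand): tgcgcctctcaCACGTGctgtcagaacgcc
CARS2 (chr13:110706500-110706529, minus strand): gctgggatgcaCACGTGcttcgctaacagg
The mitochondrial E-box windows are shown because EARS2 and MARS2 are among the genes that fell in both lines without the libraries that stood apart. In that fit CARS2 differed by -0.04 in NALM-6 and 0.10 in REH (limma adjusted p = 0.67 and 0.27). The mitochondrial genes IARS2 and NARS2 and the cytosolic genes EPRS, KARS, RARS and FARSB fell in both lines too, and their windows hold no E-box. DARS and VARS, which also fell in both, had no promoter entry. IARS, whose E-box begins 186 bases before the start and is not shown, also fell in both lines in that fit. A match of letters is a description and not a site.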

How the data were processed

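The authors deposited 1 table of CPM values (reads of a gene per 1000000 assigned reads) covering 60617 genes and 12 libraries. Per the labels' protocols, libraries were stranded TruSeq mRNA libraries, and the submitters' processing notes name GRCh38, FastQC, Trimmomatic 0.33, HISAT2 2.1.0, featureCounts and edgeR, while the strand setting is not given in the sources used here. Whole reads could be recovered for 100% of the deposited CPM values (tolerance 1e-06), and those reads entered the edgeR and DESeq2 alternatives. Members and gene lists were chosen with earlier results of these data known.

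The main test was limma 3.58.1 with trend in R 4.3.3 on log2(CPM + 1), over the 14364 genes that reached 1 CPM in 3 or more libraries, fitting 4 group means over 12 libraries, two-sided, with Benjamini-Hochberg adjustment over all genes and a threshold of 0.05. edgeR 4.0.16 (quasi-likelihood) and DESeq2 1.42.0, 2 other scalings, pseudocounts of 0.25 and 5, a filter of 5 CPM or none, each line alone, a replicate block and fits without each library were alternatives. Named in full are members called in a comparison (at most 8 per line by size, 6 for other comparisons) with their counterpart for the same amino acid, and up to 3 called genes of each other list. One of these lists is not reported here. The fits were tested on simulated data. Lengths and coordinates come from GENCODE 29 (58542 of 60617 identifiers matched). Replicate numbers from the titles met a pairing rule in NALM-6, which asks for over 0.1 in every same-numbered pair of CSF and media libraries. Same-numbered deviations correlated at 0.36, 0.19 and 0.17 there, and differently numbered ones at -0.37 to 0.23. NALM-6 CSF 2 with media 3 (0.23) and CSF 3 with media 2 (0.16) also passed 0.1, so the rule cannot show which libraries were paired. The REH libraries did not meet the rule (-0.46, 0.24 and -0.32). Library totals were 23412869 to 37146556 reads, and 3 libraries per group limit the precision.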

Additional observations from a re-analysis of the deposited data

Results flagged for a closer look

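Among the synthetase genes and the lists of related genes, cell type markers left aside, the difference of the CSF responses between the lines, REH minus NALM-6, passed limma's test of the difference itself for 4 genes. Among the synthetase genes this was WARS, at -0.71, with 3 of 3 CSF libraries above all media libraries in both lines. QRSL1, the glutaminyl-tRNA amidotransferase subunit, differed by -0.80, with lower CSF libraries in REH and higher ones in NALM-6, where NALM-6 media 1 had 86.5 CPM, against 117 and 117 CPM in the other media libraries. SESN2 differed by 0.72 and DDIT4 by 1.28, both higher in CSF in both lines. Of all genes tested, 4.23% were called for this difference.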

How the results depend on the processing

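Of 243 alternatives for single genes, 194 left the call and direction as they were, 49 lost the call and 0 reversed. Counts of called synthetase genes moved more, and the cause was not tested. Counts or shares over all genes are given above only for limma, with all libraries under each scaling and without both libraries that stood apart. Where none is given, the counts of synthetase genes cannot be set against all genes. In NALM-6, limma called 1 cytosolic gene, edgeR 3 and DESeq2 8. Of the mitochondrial genes there limma called 0, median-of-ratios scaling 2, quantile normalization 3, edgeR 2 and DESeq2 7, and leaving out 1 library gave 0 to 4, the 4 without NALM-6 media 1. In REH, limma called 2 cytosolic genes, edgeR 1, DESeq2 4, the fit with a replicate block 0, and leaving out 1 library gave 0 to 11, the 11 without NALM-6 media 1 and 0 without any of NALM-6 CSF 1, 2 and 3, REH media 1, 2 and 3 and REH CSF 2 and 3, while NALM-6 media 2 left 1. Of the mitochondrial genes in REH limma called 0, median-of-ratios and quantile scaling 2 each, edgeR 1, DESeq2 4 and the fit of each line alone 1, and leaving out 1 library gave 0 to 6, the 6 without NALM-6 media 1.

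For the difference of the responses, the 1 cytosolic call became 0 in edgeR, in DESeq2, with either other scaling and with the replicate block, and was 0 to 1 when 1 library was left out. Between the lines in media, the 7 cytosolic calls became 11 in DESeq2, 3 with the replicate block and 4 to 9 when 1 library was left out, and the 1 mitochondrial call became 6 in edgeR, 6 after quantile normalization, 7 under median-of-ratios scaling, 9 in DESeq2 and 1 to 7 when 1 library was left out, the 7 without NALM-6 media 1. With the replicate block (numbers met the pairing rule in NALM-6 only), SARS (limma adjusted p = 0.079) and DARS (0.16) in REH and MARS (0.059), RARS (0.076), CARS (0.074) and WARS (0.076) between the lines missed the threshold. The replicate block moved no other count by over 1.5 times.

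Without both libraries that stood apart, limma, edgeR and limma with median-of-ratios scaling called 11, 13 and 15 cytosolic and 5, 8 and 8 mitochondrial genes in NALM-6, and 15, 16 and 15 cytosolic and 6, 8 and 6 mitochondrial genes in REH. For the difference of the responses they called 2, 1 and 2 cytosolic and 0, 1 and 1 mitochondrial genes. Between the lines they called 15, 14 and 14 cytosolic and 13, 11 and 11 mitochondrial genes. In limma, 41.6% of all genes were then called in NALM-6, 45.0% in REH, 13.9% for the difference and 67.4% between the lines. The shares for edgeR and for median-of-ratios scaling in these fits are not given here. Promoter shares over the 250 bases before the start alone were 12.5% (cytosolic) and 3.19% (all) for the response element. For the E-box they were 14.3% (mitochondrial, 2 of 14) and 6.49% (all). The lowest member value in any library was 25 reads, and the part of depth in these limits was not tested.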
